A study of Mus musculus with 70 samples.

Results

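The 10 genes described here are Col1a1, Col1a2, Col3a1, Dcn, Lum, Ogn, Fmod, Aldh1a2, Slc6a13 and Islr, which are expressed by fibroblasts of the meninges and of the matrix around blood vessels. They were taken by symbol from a table of 24346 genes, and all 10 were found. All 10 had a mean of at least 0.1 FPKM, the minimum that 16083 genes of the table passed, and none was listed at 0 in any library. FPKM relates the fragments of a transcript to its length and to all fragments mapped in that library. The genes were not chosen for a difference between groups, but they were chosen with earlier results of these data known.

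RNA of the bilateral dorsal hippocampus was measured in 70 libraries of 12-week-old male C57BL/6J mice, with 10 libraries in each of 7 groups and 5 of these from each of 2 harvest cohorts. Groups are named by the days of initial wheel running, of sedentary delay and of reactivating running. The 5 exercise groups comprised 0-0-2, 14-0-0 and 14-14-0 as well as 14-7-2 and 14-7-0, and the sedentary group (0-0-0) had no running. These 6 groups had a 3-min object location memory (OLM) acquisition, which is subthreshold for long-term memory in sedentary mice, 1 h before the tissue was taken. Home cage mice had neither running nor acquisition. No group carried a transgene, and all mice were of the same strain.

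Fibroblasts of the pia and arachnoid cover the brain, and related cells follow the larger vessels into the tissue. They secrete fibrillar collagens together with small leucine-rich proteoglycans, which bind the collagen fibrils and set their spacing. The choroid plexus lies next to the dorsal hippocampus and has an epithelium, whose main secreted product is the thyroxine carrier Ttr, on a stroma that also holds fibroblasts. Ttr was set beside the 10 genes library by library, as a measure of choroid plexus RNA.

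The upstream sequences of a pair of collagens and of Ogn are shown because these genes moved together between libraries while differing in their relation to Ttr. Each window reaches from 250 bases before to 50 bases after the RefSeq transcript start on assembly GRCm38.p6, on the plus strand, and capitals mark the CCAAT box, the TATA box (searched as TATAAA) and the GC box (searched as GGGCGG) on either strand.
Col1a2, chr6:4505368-4505667: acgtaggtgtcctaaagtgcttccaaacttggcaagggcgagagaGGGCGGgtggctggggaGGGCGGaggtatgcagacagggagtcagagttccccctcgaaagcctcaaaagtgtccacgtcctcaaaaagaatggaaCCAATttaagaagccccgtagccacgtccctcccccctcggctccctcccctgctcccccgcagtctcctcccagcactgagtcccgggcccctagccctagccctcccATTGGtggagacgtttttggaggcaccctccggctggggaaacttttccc
Col3a1, chr1:45311288-45311587: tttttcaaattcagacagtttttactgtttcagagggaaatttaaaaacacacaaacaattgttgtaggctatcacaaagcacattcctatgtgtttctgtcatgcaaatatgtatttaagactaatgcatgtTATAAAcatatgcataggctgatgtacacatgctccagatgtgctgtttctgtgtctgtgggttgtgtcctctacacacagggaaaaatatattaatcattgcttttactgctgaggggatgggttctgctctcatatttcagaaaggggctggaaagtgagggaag
Ogn, chr13:49607765-49608064: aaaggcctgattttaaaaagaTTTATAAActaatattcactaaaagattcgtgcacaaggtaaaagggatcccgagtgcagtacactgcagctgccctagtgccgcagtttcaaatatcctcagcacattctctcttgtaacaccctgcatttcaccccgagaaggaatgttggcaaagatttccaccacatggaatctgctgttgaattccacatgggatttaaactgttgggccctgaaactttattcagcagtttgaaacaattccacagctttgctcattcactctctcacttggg

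The Col1a2 window held 2 matches to CCAAT and 2 to GGGCGG. The Col3a1 window held 1 match to TATAAA, 117 bases before the start. The Ogn window held TATAAA on both strands in 1 overlapping run that lay 227 to 229 bases before the start. Windows were found for 7 of the 10 genes, 9 windows in all, and CCAAT stood in 5 of them, TATAAA in 2 and GGGCGG in 2. Among 32851 mouse windows of 300 bases, 37.4% held CCAAT, 13.6% TATAAA and 35.7% GGGCGG. None of the 3 motifs was shared by all 3 printed windows, and a match is only a description of the letters.

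Most of the 10 genes are spread over the genome. On GRCm38, Col3a1 lies on chromosome 1 (45311538 to 45349706) with Fmod (134037254 to 134048280), Col1a2 on chromosome 6 (4505618 to 4541543) with Slc6a13 (121300288 to 121337721), and Col1a1 on chromosome 11 (94936224 to 94953042). Aldh1a2 (71215789 to 71296243) and Islr (58156246 to 58159236) lie on chromosome 9 and Ogn on chromosome 13 (49608015 to 49624501). Dcn (97479500 to 97518163) and Lum (97565501 to 97572703) are neighbours on chromosome 10, with 47.3 kb between them.

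The levels were low and varied strongly between libraries of the same group. Islr had the highest median over the 70 libraries, 7.83 FPKM (range 2.93 to 15.1), followed by Dcn, the proteoglycan decorin, with 7.43 FPKM (2.00 to 86.6). Medians of the other genes were 3.05 FPKM for Slc6a13, 2.37 for Ogn, 2.10 for Aldh1a2, 2.04 for Col1a2, 1.92 for Fmod, 1.84 for Lum, 1.17 for Col1a1 and 0.497 for Col3a1. Within groups the SD of log2(FPKM + 0.1) lay between 0.45 for Islr and 0.87 for Dcn, against a median of 0.25 over all genes tested. The difference between the highest and the lowest group mean ran from 0.48 log2 units for Islr to 1.08 for Lum, so for most genes it was of the size of that SD. As the tissue is bulk, more cells of a type and more RNA per cell cannot be told apart.

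The groups stood in nearly the same order for most of the genes. The sedentary group had the lowest mean log2 value for 8 of the 10, and the exceptions were Col1a1, lowest in 14-7-2, and Ogn, lowest in 14-7-0. The 14-14-0 group had the highest mean for 9 of the 10, and Aldh1a2 was highest in 14-0-0. The 10 genes are not independent measurements of this order, since they rise and fall together in the same libraries. A moderated F test over the 7 groups (limma) gave an unadjusted p under 0.05 for 2 of the 10 genes, Col3a1 (p = 0.0431) and Lum (p = 0.0329), against 8.11% of all genes tested, and neither passed adjustment. The plot of FPKM by library shows the overlap of all 7 groups.

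**Figure D1:**
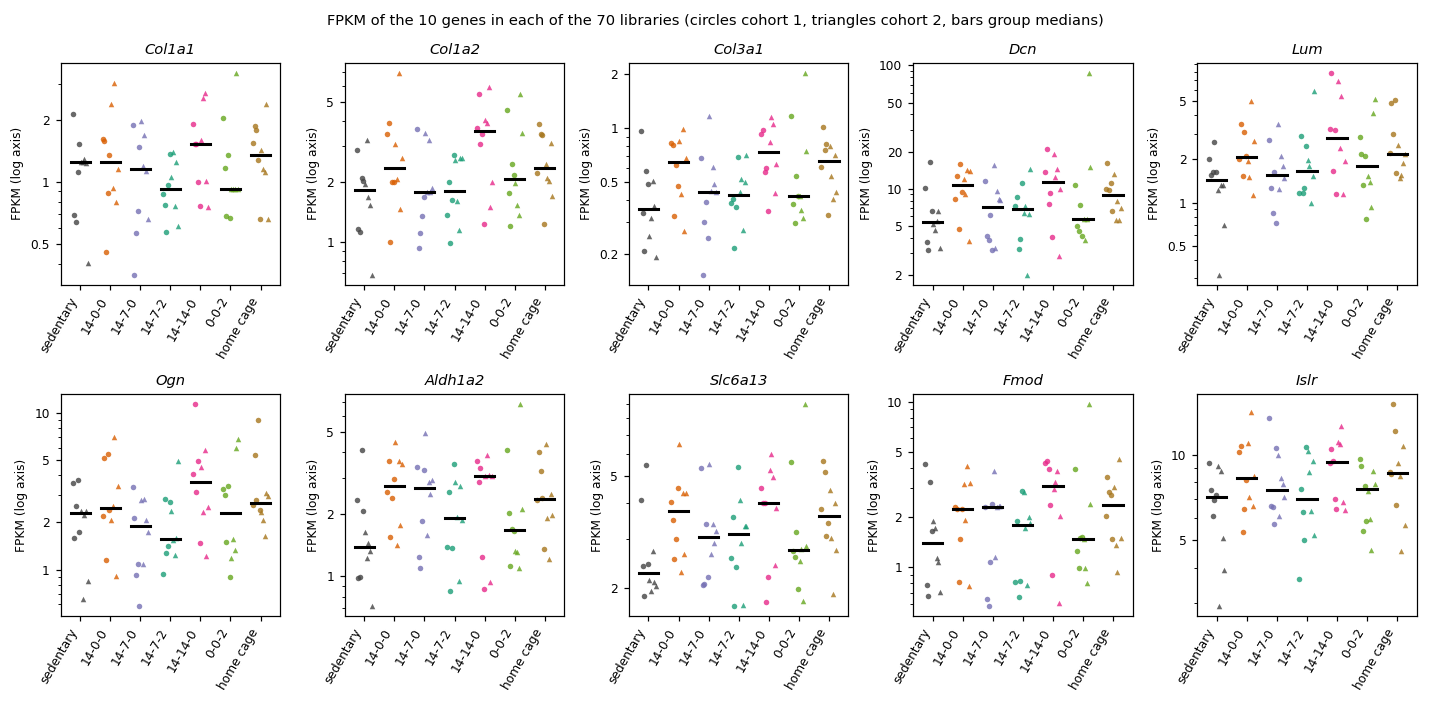
FPKM of each of the 10 genes (vertical log axes) in the 70 libraries, by group, with circles for harvest cohort 1, triangles for cohort 2 and a bar at the group median. The 14-14-0 median is the highest for Dcn (11.2 FPKM) and the sedentary median the lowest (5.33 FPKM), all groups overlap, and the Dcn value of 86.6 FPKM belongs to 1 library of the 0-0-2 group.

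Each group was compared with the same 10 sedentary libraries, so the 6 comparisons share their controls and are not independent. A gene was called at an unadjusted p under 0.05 (limma, two-sided, 20 libraries), the threshold of the study, and Benjamini-Hochberg adjusted p-values over all 16083 genes are given beside it. In 14-0-0, 5 of the 10 genes were called higher, against 6.78% of all genes tested, and 0 were called lower, against 2.96%. In 14-14-0, 7 were called higher, against 4.41%, and 0 lower, against 1.72%. In home cage mice, 5 were called higher, against 1.83%, and 0 lower, against 1.22%. In 14-7-0, 1 gene, Aldh1a2, was called higher, against 1.65%, and 0 lower, against 1.83%. In 14-7-2, 0 genes were called in either direction, against 2.36% of all genes higher and 2.29% lower, and in 0-0-2 again 0, against 1.43% and 1.29%. Cyber-T on FPKM also called 0 of the 10 in these 2 groups. Of all genes it called 201 higher and 255 lower in 14-7-2, and 84 higher and 150 lower in 0-0-2. In the other groups, Cyber-T called 9 of the 10 higher in 14-14-0, 8 in home cage, 6 in 14-0-0 and 1 in 14-7-0. Of all 16083 genes it called 643, 221, 730 and 121 higher in these groups. Taken over the 10 genes, the log2 fold change had a median of 0.74 for 14-14-0, 0.56 for home cage, 0.49 for 14-0-0, 0.32 for 0-0-2, 0.18 for 14-7-0 and 0.12 for 14-7-2, while the median over all genes tested lay between -0.01 and 0.01. No gene of the 10 passed adjustment in any comparison, and neither did any of the 16083 genes. The smallest adjusted p among the 10 was 0.323 in 14-0-0, 0.741 in 14-14-0 and 1 in home cage.

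The fibrillar collagens were led by Col1a2 and Col3a1. Col1a2, a chain of type I collagen, had 0.688, 1.82 and 3.21 FPKM as the lowest, median and highest sedentary value, and 1.22, 3.56 and 5.90 in 14-14-0. In 14-14-0, 6 of 10 libraries lay above every sedentary library. The difference was 0.83 ± 0.29 (log2 fold change ± SE, p = 0.00881, adjusted p = 0.741). In 14-0-0 Col1a2 ran from 1.00 over a median of 2.34 to 6.93 FPKM, with 0.54 ± 0.29 and p = 0.0772, which missed the threshold.

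Col3a1, the chain of type III collagen, was the lowest of the 10 in level. Sedentary libraries had 0.193, 0.354 and 0.961 FPKM (lowest, median, highest), 14-14-0 libraries 0.345, 0.738 and 1.16, and 14-0-0 libraries 0.270, 0.654 and 0.987. The groups overlapped, with 9 of 10 libraries of 14-14-0 above the sedentary median. Col3a1 was called higher in 14-14-0 (0.75 ± 0.23, p = 0.00412), in home cage (0.56 ± 0.22, p = 0.0191) and in 14-0-0 (0.51 ± 0.24, p = 0.0445). The call in 14-0-0 was lost without sedentary replicate 6 (p = 0.0647) and with Cyber-T on FPKM (p = 0.0640). Home cage libraries ran from 0.330 over a median of 0.662 to 1.01 FPKM.

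Col1a1, the other chain of type I collagen, was called in 0 of the 6 comparisons. Its sedentary values were 0.405, 1.25 and 2.15 FPKM (lowest, median, highest), and its 14-14-0 values 0.756, 1.54 and 2.72. The log2 fold changes ran from -0.18 ± 0.23 in 14-7-2 to 0.38 ± 0.27 in 14-14-0. Although both chains form the same collagen, the log2 ratio of Col1a2 to Col1a1 varied between libraries from 0.16 to 1.93, with a median of 0.82. Their log2 values had r = 0.83 over the 70 libraries.

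Of the small leucine-rich proteoglycans, Lum and Dcn were called in 3 comparisons each, Ogn in 1 and Fmod in 0. Lum, lumican, had 0.318, 1.44 and 2.63 FPKM in sedentary libraries, 1.14, 2.05 and 5.06 in 14-0-0, 1.14, 2.78 and 7.84 in 14-14-0 and 1.48, 2.18 and 5.14 in home cage. Every home cage library and 9 of 10 libraries of 14-0-0 lay above the sedentary median. The lowest sedentary value belonged to sedentary replicate 6, in which the summed FPKM of 6 hippocampal neuron genes was 73.4, against 207.7 or more in every other library, and that of 6 thalamus genes 315.1. Lum was called higher in 14-14-0 (1.08 ± 0.37, p = 0.00812), home cage (0.86 ± 0.29, p = 0.00846) and 14-0-0 (0.76 ± 0.29, p = 0.0178).

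Dcn had 3.15, 5.33 and 16.3 FPKM in sedentary libraries and 2.83, 11.2 and 21.1 in 14-14-0. In 14-0-0 it had 3.74, 10.7 and 15.9 FPKM and in home cage 5.54, 8.87 and 16.3. No 14-0-0 library exceeded the highest sedentary library, although the median was higher. The differences were 0.77 ± 0.35 in 14-14-0 (p = 0.0394), 0.61 ± 0.27 in home cage (p = 0.0323) and 0.73 ± 0.30 in 14-0-0 (p = 0.0243). In 0-0-2 the mean of Dcn was 14.8 ± 25.5 FPKM (SD, n = 10), the highest group mean on the FPKM scale, but its median was 5.68 FPKM and its log2 fold change was 0.50 ± 0.45 (p = 0.288).

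That mean rested on 1 library. In 0-0-2 replicate 8, Dcn was 86.6 FPKM, against 15.0 in the next library of its group, and Col1a1 (3.39 FPKM), Col3a1 (2.03), Aldh1a2 (6.81), Slc6a13 (8.98) and Fmod (9.66) were also at their highest of all 70 libraries. Ttr was 53.0 FPKM there, below the median of 104 over all libraries. The summed FPKM of the 6 hippocampal neuron genes was 207.7 in that library, the lowest but for sedentary replicate 6, and that of 10 genes of pericytes and smooth muscle was 124.5, the highest of all. Their part in the Dcn value was not tested. Without this library the 10 genes had a median of 0.12 in 0-0-2, as a log2 fold change. Again 0 of them were called, against 286 higher and 210 lower among all 16083 genes.

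Ogn, osteoglycin, had 0.654, 2.30 and 3.75 FPKM in sedentary libraries and 1.22, 3.59 and 11.3 in 14-14-0, where 5 of 10 libraries exceeded every sedentary library. It was called higher in 14-14-0 (0.79 ± 0.36, p = 0.0401). In 14-7-0 it had 0.589, 1.91 and 3.37 FPKM and a log2 fold change of -0.22 ± 0.32 (p = 0.508). Fmod, fibromodulin, had 0.667, 1.40 and 4.23 FPKM in sedentary libraries and 0.607, 3.11 and 4.38 in 14-14-0, with 0.73 ± 0.38 (p = 0.0651). Its spread within groups, an SD of 0.84, was near those of Dcn and Ogn.

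Aldh1a2, which makes retinoic acid, and Slc6a13, a transporter of GABA and taurine in the leptomeninges, are not matrix genes. Aldh1a2 had 0.722, 1.39 and 4.07 FPKM in sedentary libraries, 1.41, 2.75 and 4.46 in 14-0-0, 1.10, 2.69 and 4.95 in 14-7-0 and 1.22, 2.38 and 4.36 in home cage. It was the gene of the 10 with the smallest p in 14-0-0 (0.76 ± 0.26, p = 0.00879) and was called higher in 14-7-0 (0.61 ± 0.28, p = 0.0458) and home cage (0.61 ± 0.27, p = 0.0321). In 14-14-0 the difference was 0.59 ± 0.31 (p = 0.0743). Without 14-7-0 replicate 4, a library of very low depth, or without sedentary replicate 6, 0 of the 10 genes were called in 14-7-0. Of all 16083 genes, 333 and 257 were called higher in these fits and 326 and 279 lower.

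Slc6a13 had 1.89, 2.27 and 5.49 FPKM in sedentary libraries, 2.29, 3.77 and 6.51 in 14-0-0, 1.79, 4.02 and 5.97 in 14-14-0 and 1.91, 3.62 and 5.65 in home cage. It was called higher in all 3 groups, by 0.48 ± 0.20 (p = 0.0290), 0.49 ± 0.23 (p = 0.0401) and 0.46 ± 0.20 (p = 0.0322). Of the sedentary libraries, 8 lay between 1.89 and 2.72 FPKM and replicates 0 and 3 were at 4.11 and 5.49. Islr, a leucine-rich repeat protein of mesenchymal cells, had 2.93, 7.08 and 9.36 FPKM in sedentary libraries and 6.41, 9.46 and 12.7 in 14-14-0, where 6 of 10 libraries exceeded every sedentary library. It was called higher in 14-14-0 only (0.48 ± 0.20, p = 0.0247), with 0.42 ± 0.21 in 14-0-0 (p = 0.0570) and 0.42 ± 0.22 in home cage (p = 0.0692).

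Leaving out sedentary replicate 6 left 4 of the 10 genes called higher in 14-0-0, against 7.68% of all genes, 4 in 14-14-0, against 5.96%, and 4 in home cage, against 2.52%. The calls lost were Col3a1 and Slc6a13 in 14-0-0, Dcn, Ogn and Slc6a13 in 14-14-0, Dcn and Slc6a13 in home cage and Aldh1a2 in 14-7-0, with p up to 0.0817, and Col1a2 was newly called in 14-0-0 and in home cage. Counts were also taken within each of the 2 harvest cohorts. Sedentary replicate 6 belongs to cohort 2, and the cohort 2 counts were not repeated without it. The library of very low depth, 14-7-0 replicate 4, belongs to cohort 1, and the cohort 1 counts were not repeated without it. In cohort 1 alone (5 against 5 libraries), 0 genes were called in each exercise comparison, where 0.846% to 5.55% of all genes were called higher, and 1 in home cage, against 1.21%. In cohort 2 alone, 6 were called higher in 14-14-0, against 1.37% of all genes, 5 in home cage, against 0.771%, 5 in 14-0-0, against 3.68%, 5 in 14-7-0, against 1.08%, 1 in 14-7-2, against 2.24%, and 1 in 0-0-2, against 0.914%. Within cohort 1, 9 of the 10 genes were higher than sedentary in 14-0-0, 10 in 14-14-0 and 10 in home cage, against 2 in 14-7-0, 0 in 14-7-2 and 4 in 0-0-2. These directions are not independent, since the 10 genes rise and fall together in the same libraries. The share of all genes higher was not taken.

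The difference between the cohorts was tested as an interaction in each comparison. Lum in 14-7-0 was the strongest of these, with a log2 fold change of -0.50 in cohort 1 and 1.03 in cohort 2 (difference 1.53 ± 0.52, p = 0.00850), followed by Col3a1 in 14-7-0 (p = 0.0290), Lum in 14-7-2 (p = 0.0421), Slc6a13 in 14-14-0 (p = 0.0459) and Lum in 0-0-2 (p = 0.0485). None passed adjustment (smallest adjusted p = 0.937, limma). The genes called were thus 2 in 14-7-0, against 0.815% of all genes, 1 in 14-7-2, against 2.92%, 1 in 14-14-0, against 2.45%, and 1 in 0-0-2, against 1.97%. There were 0 in 14-0-0, against 2.9%, and 0 in home cage, against 0.852%. Sedentary replicate 6, the lowest of all 70 libraries in Lum (0.318 FPKM), is 1 of the 5 sedentary libraries of cohort 2. Replicate 4 of 14-7-0, in cohort 1, had the lowest Lum of its group (0.725 FPKM). Its depth was 0.0178 relative to sedentary replicate 0. The interactions were not fitted without either library. Between the cohorts themselves, over all groups, 0 of the 10 genes differed at an unadjusted p under 0.05, against 10.4% of all genes tested.

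Ttr separated the libraries far more widely than any of the 10 genes. It ran from 15.5 FPKM in sedentary replicate 0 to 21244 FPKM in 14-14-0 replicate 1. Group medians were 2225 FPKM for 14-0-0 and 2040 for 14-14-0, but 112 for home cage, 99.2 for 0-0-2, 79.2 for 14-7-2, 74.5 for sedentary and 72.4 for 14-7-0. The widest gap in the ordered log2 values lay between 501 and 877 FPKM, with 51 libraries below it and 19 above. Above it were 6 libraries of 14-0-0, 5 of 14-14-0, 3 of home cage, 2 of 14-7-2, 2 of 0-0-2, 1 of 14-7-0 and 0 of sedentary. The groups in which most of the 10 genes were called higher were thus those with most libraries of high Ttr. Of 18 genes of choroid plexus epithelium, 17 were called higher in 14-0-0, 17 in 14-14-0, 9 in home cage and 0 in the other comparisons, and their summed FPKM had medians of 159.7 in sedentary, 2714 in 14-0-0, 2534 in 14-14-0 and 237.7 in home cage.

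All 10 genes had a positive correlation with Ttr over the 70 libraries, but the strength varied. Pearson's r of the log2 values was 0.69 for Ogn, 0.67 for Lum, 0.57 for Col1a2, 0.53 for Dcn, 0.44 for Col3a1, 0.44 for Fmod, 0.34 for Aldh1a2, 0.33 for Islr, 0.26 for Slc6a13 and 0.22 for Col1a1. For Ogn, Lum, Col1a2 and Dcn the permutation p was 1e-05, the smallest that 100000 permutations can give (two-sided, adjusted p = 0.000146 over 16082 genes). Adjusted p-values were 0.00125 for Col3a1, 0.000961 for Fmod, 0.0181 for Aldh1a2 and 0.0239 for Islr, whereas Slc6a13 (permutation p = 0.0311, adjusted p = 0.091) and Col1a1 (permutation p = 0.071, adjusted p = 0.174) missed the threshold. So 8 of the 10 were correlated with Ttr after adjustment, against 13.8% of all genes tested. Spearman's rho was 0.60 for Ogn, 0.58 for Lum, 0.57 for Col1a2 and 0.58 for Dcn (each permutation p = 1e-05, adjusted p = 0.000228), 0.46 for Col3a1 (permutation p = 8e-05), 0.47 for Fmod (permutation p = 5e-05), 0.39 for Aldh1a2 (permutation p = 0.00089), 0.33 for Islr (permutation p = 0.00548), 0.31 for Slc6a13 (permutation p = 0.00792, adjusted p = 0.0358) and 0.21 for Col1a1 (permutation p = 0.0875). By rank, 9 of the 10 therefore passed, and the share of all genes that pass by rank was not taken. Ttr accounted for 47.9% of the log2 variance of Ogn and 44.4% of that of Lum, but for 6.59% of that of Slc6a13 and 4.68% of that of Col1a1.

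The relation of Ogn, Lum and Col1a2 to Ttr was also seen within each cohort. In cohort 1 (35 libraries) r was 0.72 for Ogn, 0.74 for Lum and 0.59 for Col1a2, and 6 of the 10 genes passed adjustment, against 10.6% of all genes. In cohort 2 (35 libraries) r was 0.67, 0.61 and 0.55 for the same genes, and 3 passed, against 7.07%. With the log2 values centred on the mean of each group and cohort, r was 0.67 for Ogn, 0.64 for Lum, 0.49 for Col1a2, 0.46 for Dcn, 0.35 for Col3a1 and 0.35 for Fmod, and these 6 passed, against 14.5%. Without the 2 libraries farthest from the median of Ttr, r fell to between 0.15 for Col1a1 and 0.64 for Ogn, and 7 of the 10 passed, against 11.7%. Without 0-0-2 replicate 8, r was 0.65 for Dcn, 0.51 for Col3a1 and 0.30 for Slc6a13 (permutation, adjusted p = 0.0412). There 9 of the 10 genes passed, and 2223 of all 16082 genes passed with a positive r. That library was left out after the data were seen.

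Within the 51 libraries below the gap, r lay between -0.01 for Col1a1 and 0.29 for Aldh1a2, and 0 of the 10 genes passed, against 0.292% of all genes. The range of Ttr is narrower there, which bears on r, and the log2 change per doubling of Ttr was larger there than over all libraries for 4 genes, Aldh1a2 (0.17 against 0.08), Slc6a13 (0.10 against 0.05), Fmod (0.18 against 0.13) and Islr (0.06 against 0.05). It was smaller for the other 6, among them Ogn (0.07 against 0.20) and Lum (0.09 against 0.18). Within the 19 libraries above it, r was 0.74 for Ogn (permutation p = 0.00019, adjusted p = 0.00434), 0.52 for Lum (permutation p = 0.0253, adjusted p = 0.203) and 0.49 for Col1a2 (permutation p = 0.032, adjusted p = 0.233), while it was -0.15 for Aldh1a2 (permutation p = 0.53) and -0.32 for Slc6a13 (permutation p = 0.18). Only Ogn passed adjustment there, against 7.19% of all genes. These 2 sets of libraries were formed after the data were seen.

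**Figure D2:**
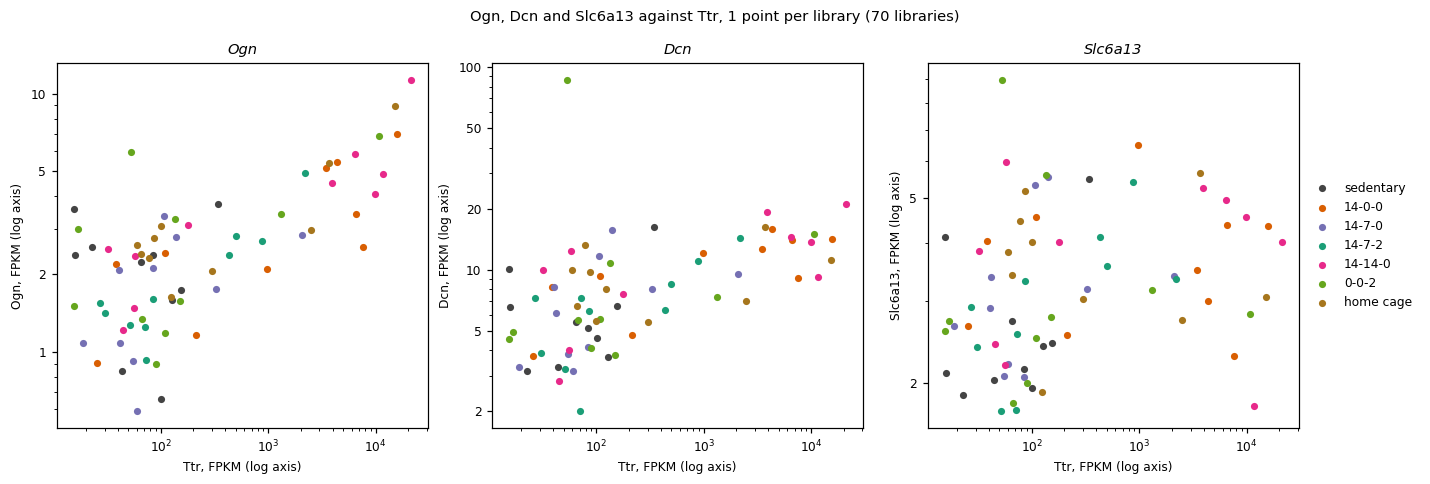
FPKM of Ogn, Dcn and Slc6a13 (vertical log axes) against FPKM of Ttr (horizontal log axis) in the 70 libraries, 1 point per library, coloured by group. In the 19 libraries from about 877 FPKM of Ttr upwards, Ogn climbs with Ttr (r = 0.74) and Slc6a13 does not (r = -0.32). Over all 70 libraries r is 0.69 for Ogn and 0.26 for Slc6a13. The 0-0-2 library with 86.6 FPKM of Dcn has 53.0 FPKM of Ttr.

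High levels of the 10 genes also occurred in libraries of low Ttr. Each gene's log2 value minus its mean was averaged over the 10 genes to give a score per library. Of the 35 libraries with Ttr above its median, 25 had a score above its median, and of the 35 others, 10 did. Among the 10 libraries highest in Ttr, 4 were among the 10 highest in the score, and among the 20 highest in Ttr, 11 were among the 20 highest. The library with the lowest Ttr of all, sedentary replicate 0 (15.5 FPKM), had all 10 genes above their medians, with 0.961 FPKM of Col3a1 and 4.23 FPKM of Fmod. In the libraries below the gap in Ttr the score ranged from -1.21 to 1.60 (SD 0.57, n = 51), with all 10 genes above their medians in 7 libraries and none in 16. Above the gap it ranged from -0.19 to 1.07 (SD 0.38, n = 19), with all 10 above their medians in 10 libraries and none in 0.

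In some libraries of high Ttr, Ogn and Lum were above their medians over all libraries while Slc6a13 or Col1a1 was below its own. In 14-14-0 replicate 3, with 11592 FPKM of Ttr, Ogn was 4.90 and Lum 3.16 FPKM, both above their medians over all libraries, whereas Slc6a13 was 1.79 FPKM, the lowest of its group, and Aldh1a2 1.24 FPKM. In 0-0-2 replicate 9, with 10651 FPKM of Ttr, Ogn was 6.84 and Lum 5.21 FPKM, but Slc6a13 was 2.82 and Col1a1 0.921 FPKM. These values of Slc6a13 and Col1a1 were near the medians of the 0-0-2 group (2.74 and 0.9245 FPKM). In 14-7-2 replicate 9, with 2198 FPKM of Ttr, Lum was 5.87 FPKM, the highest of its group, and Col1a1 0.613 FPKM. The log2 ratio of Ogn to Slc6a13 had r = 0.64 with Ttr, within cohorts 0.68 and 0.61, and the ratio of Lum to Slc6a13 had 0.66, within cohorts 0.72 and 0.60. The ratio of Col1a2 to Col1a1 likewise had r = 0.64 with Ttr, 0.65 in cohort 1 and 0.64 in cohort 2, and that of Lum to Ogn had -0.18. These libraries and ratios were chosen after the values were seen and carry no test.

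With log2(FPKM + 0.1) of Ttr as a covariate, 0 of the 10 genes were called in any of the 6 comparisons. The share of all genes called higher also fell in 5 of the 6, to 3.49% in 14-0-0, 0.541% in 14-14-0, 0.665% in home cage, 1.7% in 14-7-2 and 1.21% in 0-0-2, while it was 1.94% in 14-7-0. Their median was then 0.43 for home cage, 0.33 for 14-14-0, 0.27 for 0-0-2, 0.21 for 14-0-0, 0.10 for 14-7-0 and -0.03 for 14-7-2. In 14-0-0 the estimates of Ogn and Dcn fell most. Ogn went from 0.47 ± 0.35 to -0.16 ± 0.39 and Dcn from 0.73 ± 0.30 to 0.15 ± 0.32, while Slc6a13 went from 0.48 ± 0.20 to 0.38 ± 0.26 (p = 0.153) and Aldh1a2 from 0.76 ± 0.26 to 0.49 ± 0.32 (p = 0.143). In 14-14-0, Lum went from 1.08 ± 0.37 to 0.42 ± 0.35 and Col3a1 from 0.75 ± 0.23 to 0.54 ± 0.27 (p = 0.0576). In home cage, Slc6a13 went from 0.46 ± 0.20 to 0.43 ± 0.23 (p = 0.0812) and Lum from 0.86 ± 0.29 to 0.56 ± 0.31 (p = 0.0888). For Slc6a13 the estimate fell little and the standard error rose. For the F test over the 7 groups the covariate left 0 of the 10 genes called, and 886 of all 16083 genes, against 1305 without it.

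**Figure D3:**
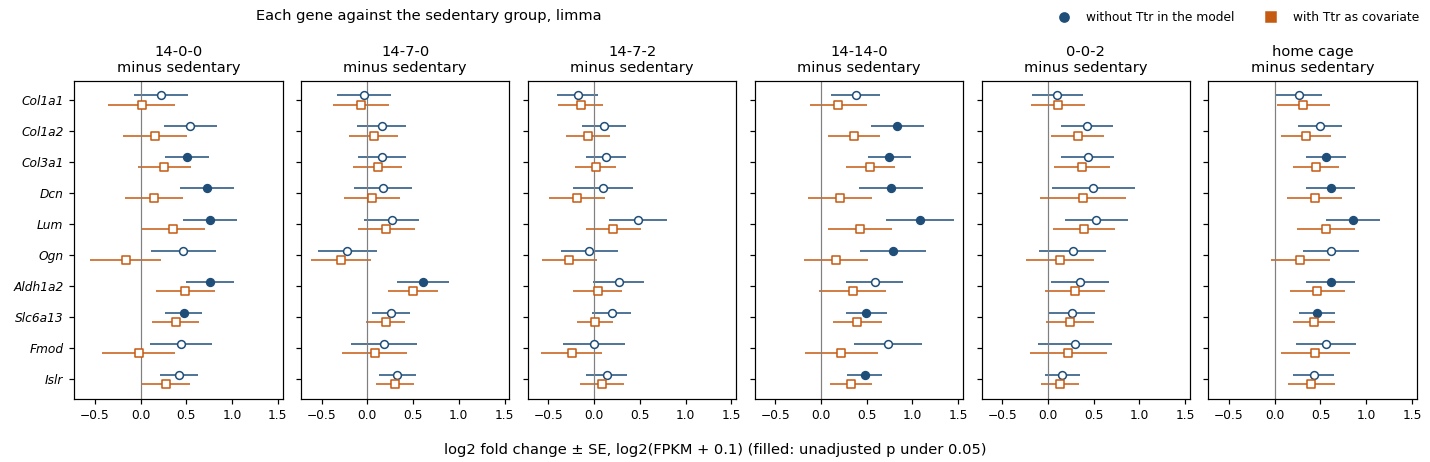
Log2 fold change ± SE of each of the 10 genes (rows) in the 6 comparisons with sedentary (panels), without Ttr in the model (blue circles) and with Ttr as a covariate (orange squares), filled where the unadjusted p was under 0.05. Filled points are found only without Ttr, 5 in 14-0-0, 1 in 14-7-0, 7 in 14-14-0 and 5 in home cage.

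For 7 of the 10 genes, r with each of the 9 others was above r with Ttr, whereas Ogn and Lum each had a higher r with Ttr than with 5 of the 9 others, and Dcn than with 1. Over the 70 libraries, the r of the 45 pairs had a median of 0.71 and ran from 0.46 for Dcn and Islr to 0.91 for Lum and Ogn, with 42 pairs over 0.5. Aldh1a2 and Slc6a13 had 0.89. Centred on group and cohort, the median was 0.705 and the highest 0.92, for Lum and Ogn. After the linear relation to Ttr was taken out of each gene, the median was 0.67, and Aldh1a2 and Slc6a13 were the closest pair with 0.88. Below the gap in Ttr the median was 0.72. Above it Ogn and Slc6a13 had -0.10, the lowest of all pairs there, and Aldh1a2 and Slc6a13 0.90. All points of these correlations share a library and its depth, so they are given as descriptions, without a test.

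**Figure D4:**
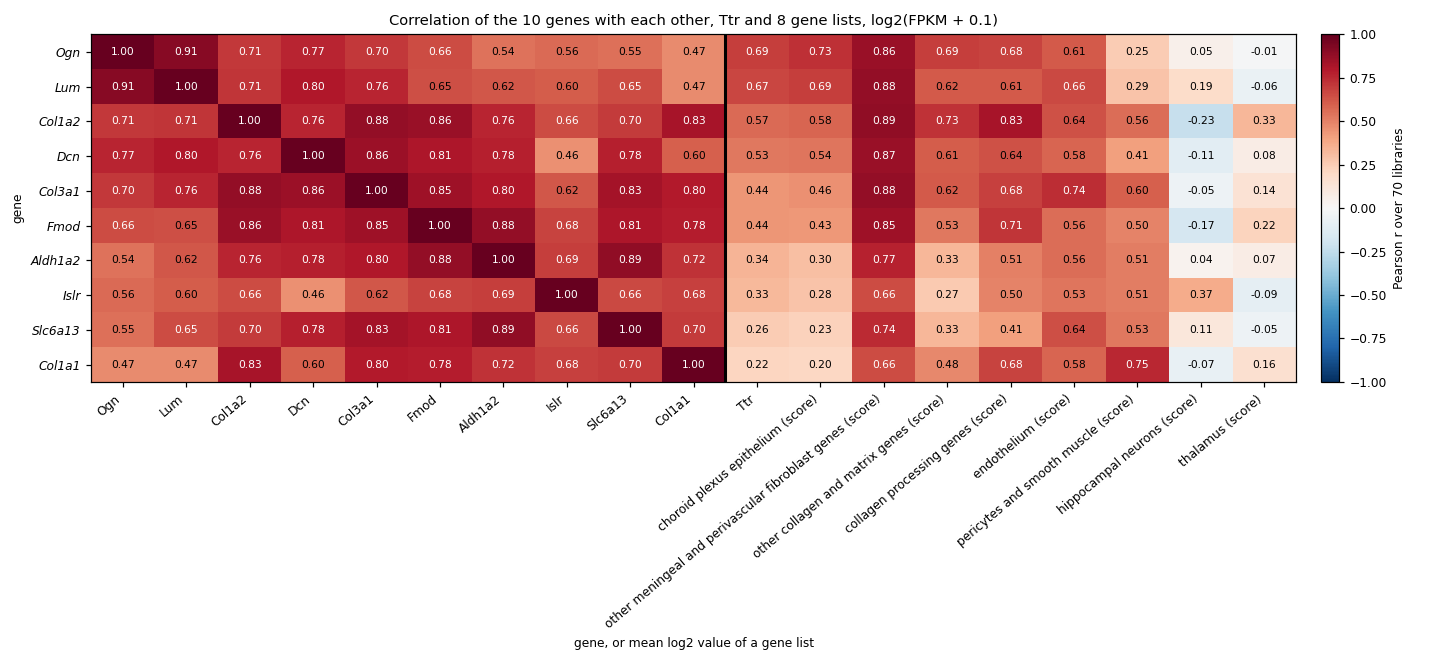
Pearson's r over the 70 libraries between the 10 genes (rows, ordered by r with Ttr) and, in columns, the same genes, Ttr and the mean log2 values of 8 gene lists. Ogn and Lum stand at the top of the Ttr column (0.69 and 0.67), and Col1a1 stands last there (0.22) but highest for pericytes and smooth muscle (0.75).

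The genes also differed in which other cell types they moved with. Col1a1 had r = 0.75 with the mean of 10 genes of pericytes and smooth muscle, against 0.25 for Ogn and 0.29 for Lum. With 18 genes of choroid plexus epithelium the order was turned, with 0.20 for Col1a1, 0.23 for Slc6a13, 0.69 for Lum and 0.73 for Ogn. Col3a1 had the highest r of the 10 with 10 endothelial genes (0.74). With 6 genes of hippocampal neurons, r lay between -0.23 for Col1a2 and 0.37 for Islr, and with 6 thalamus genes between -0.09 for Islr and 0.33 for Col1a2. Of the endothelial genes 3 were called higher in 14-0-0, 2 each for 14-14-0 and home cage and 1 for 14-7-0, and of the pericyte and smooth muscle genes 3 in 14-14-0 and 1 in 14-7-0. The lists of hippocampal neurons and thalamus had 0 genes called in all comparisons. Without sedentary replicate 6, 1 neuron gene was called higher in 14-0-0 and 1 lower in 14-14-0, and 1 thalamus gene was called higher in 14-14-0. The median log2 fold change of the neuron genes in 14-0-0 was then 0.08, against 0.45 with that library.

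A further 15 genes of meningeal and perivascular fibroblasts were called mostly in the same groups. Of these, 11 were called higher in 14-14-0, 7 each for 14-0-0 and home cage, 3 for 14-7-0 and 0 for 14-7-2 or 0-0-2, and 0 were called lower anywhere. Their median log2 fold change was 0.40 in 14-0-0 and 0.52 in 14-14-0. The most abundant of them were Igf2 (1.53 ± 0.40 in 14-0-0, p = 0.00108, and 1.52 ± 0.49 in 14-14-0, p = 0.00556), Igfbp2 (1.18 ± 0.42 and 1.37 ± 0.47) and Mgp (0.54 ± 0.24 and 0.64 ± 0.24). Igf2, a growth factor, and Igfbp2, which binds it, are also made by choroid plexus, so this list is not specific to the meninges. With Ttr as a covariate, 2 of the 15 were called higher in home cage and 2 in 14-7-0, and 0 in the other comparisons.

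Of 21 other collagen and matrix genes, 5 were called higher in 14-0-0, 6 in 14-14-0, 2 in home cage and 0 in the other comparisons, with medians of 0.04 in 14-0-0 and 0.22 in 14-14-0. Bgn, the proteoglycan biglycan, was called higher in 14-0-0 (0.34 ± 0.14), 14-14-0 (0.32 ± 0.15) and home cage (0.25 ± 0.11). Sparc, a collagen-binding matrix protein, and Col4a2, a chain of the basement membrane collagen, were called in none of the 6, with 0.03 ± 0.13 and -0.24 ± 0.16 in 14-0-0. Of 10 genes for collagen processing and folding, 1 was called higher and 1 lower in 14-0-0, 3 lower in 14-7-0, 2 lower in 14-7-2, 2 higher in 14-14-0 and 2 higher in home cage. Among these, P4ha1, a subunit of the collagen prolyl hydroxylase, was lower in 14-7-0 (-0.20 ± 0.09, p = 0.0317) and 14-7-2 (-0.21 ± 0.08, p = 0.0137), and P4hb and Serpinh1 were called in none of the 6. Sedentary replicate 6 had the highest value of all 70 libraries for P4hb (64.7 FPKM), Serpinh1 (19.7) and Sparc (177). Without it, 0 processing genes were called lower in 14-0-0, 2 in 14-7-0 and 1 in 14-7-2. Called higher were 1 in 14-0-0, 1 in 14-14-0 and 2 in home cage. Of the 21 matrix genes, 6 were then called higher in 14-0-0 (median 0.11), 6 in 14-14-0 (0.19), 2 in home cage and 1 in 0-0-2. Of the endothelial genes, Itm2a was called in 14-0-0 (0.27 ± 0.08), Ly6c1 and Cldn5 in none, and of the pericyte and smooth muscle genes Rgs5 was called in 14-14-0 (0.27 ± 0.12), Vtn and Acta2 in none.

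The 10 further genes whose levels followed the 10 most closely, by r with the score after centring on group and cohort over the 70 libraries, were Itih2 (0.87), Gjb2 (0.86), Ptgds (0.86), Mgp (0.86), Mpzl2 (0.85), Ptgdr (0.85), Slc6a20a (0.84), Ptrf (0.84), Cyp1b1 (0.83) and Mrc2 (0.82). Ptgds, prostaglandin D synthase, had a mean of 486 FPKM (range 199 to 1263), and Ptgdr, a receptor for its product, 0.158 FPKM. Gjb2, Mgp, Slc6a20a and Cyp1b1 belong to the list of 15 fibroblast genes. Slc6a20a had the highest r with Ttr of these, 0.62, and Ptgds the lowest, 0.22. Over the lists, the median r with the score was 0.72 for the 15 fibroblast genes, 0.43 for choroid plexus epithelium, 0.42 for endothelium, 0.33 for other collagen and matrix genes, 0.29 for pericytes and smooth muscle, 0.25 for collagen processing, 0.13 for thalamus and -0.07 for hippocampal neurons, against -0.01 for all other genes tested.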

How the data were processed

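RNA-seq was analysed in all 70 libraries. The authors aligned 50 bp single reads with ELAND v2e and Bowtie, kept unique reads with at most 2 mismatches and deposited FPKM by the Tuxedo protocol; the submitters' notes also name Cuffnorm and mm10, without versions. Values were used as log2(FPKM + 0.1). Genes whose mean reached 0.1 FPKM were tested with limma 3.58.1 (R 4.3.3, trend), each group against sedentary and without covariates. Calls were made at an unadjusted p under 0.05, with Benjamini-Hochberg adjustment over 16083 genes. Correlations with Ttr were tested with 100000 permutations (numpy 2.4.6). The scripts were tested on simulated data.

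The genes, the lists and the tests were chosen with earlier results of these data known. Genes named are the 10 genes, Ttr, the 3 most abundant genes of each list of cell type or matrix genes, and the 10 genes most like the score. Of the hippocampal neuron, thalamus and choroid plexus lists only Ttr is named. Promoters and positions are from RefSeq, on GRCm38.p6, the assembly of mm10.

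The read totals per library that the study lists were not used here, and depth is given relative to sedentary replicate 0, from the steps of low FPKM values. It ran from 0.0178 in 14-7-0 replicate 4 and 0.351 in 14-0-0 replicate 1 to 1.50, with a median of 0.796. Each library is labelled as a separate sample, and p-values measure the spread between these samples. Of 2415 pairs of libraries, 0 were identical. Replicate numbers mark the harvest cohort (0 to 4 and 5 to 9) and were not taken to pair libraries. Alternatives were another pseudocount, minimum, scaling, fit or test, covariates, and single cohorts or libraries left out.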

Additional observations from a re-analysis of the deposited data

Results flagged for a closer look

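Each of the 10 genes was examined in each of the 7 groups for a library far from the other 9, by the gap to its nearest neighbour as a share of the range (Dixon's criterion). Of 70 combinations, 1 passed, where chance alone gives about 1 in 20. This was Dcn in 0-0-2 replicate 8, at 86.6 FPKM against 15.0 FPKM in the next library, a gap of 0.564 of the range of log2 values. The cause of this value was not tested. No gene of the 10 differed between the harvest cohorts in a comparison after adjustment.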

How the results depend on the processing

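Of the 18 calls of the 10 genes over the 6 comparisons, all kept their direction under every alternative that gave a value, 214 values in all, and 160 of these stayed under an unadjusted p of 0.05. The Ttr covariate took the called count to 0 in 14-0-0, 14-7-0, 14-14-0 and home cage and in the F test over the 7 groups. In cohort 1 alone it was 0 in 14-0-0, 14-7-0 and 14-14-0 and 1 in home cage. In cohort 2 alone it was 5 in 14-7-0, 1 in 14-7-2 and 1 in 0-0-2. Without sedentary replicate 6 it was 4 in 14-14-0, and leaving out single libraries gave 0 in 14-7-0 and 1 to 4 in the F test, 4 without 0-0-2 replicate 8. With single libraries left out, the F test called 1318 to 1455 of the 16083 genes, against 1305 in all libraries. In 14-7-0 no minimum gave 0, where 318 of 20779 genes were called higher, and the cohort covariate gave 0, where 277 of 16083 were. Cyber-T on FPKM gave 8 in home cage, where it called 221 of the 16083 genes higher. In the F test a pseudocount of 1 FPKM gave 1, against 1331 of 16083 genes. A minimum of 1 FPKM also gave 1, against 992 of 12994 genes, and Col3a1 was not tested there. The replicate block gave 2 in 14-7-0 and 4 in the F test. Over all 16083 genes it called 317 higher in 14-7-0 and 1847 in the F test, against 265 and 1305 without it. The labels do not say whether the numbers of this block pair the libraries. In each comparison between 2 and 7 of 10 same-numbered pairs had deviations correlated by more than 0.1. Pairs of different number were not examined, so this does not decide the question. With Ttr, 3 genes passed in cohort 2, 0 below the gap in Ttr and 1 above it, where Aldh1a2 (r = -0.154) and Slc6a13 (r = -0.32) were negative, as was Col1a1 below it (r = -0.00908). Over the 10 genes, the median log2 fold change moved by less than the SD of the score among sedentary libraries (0.54). That SD is larger than the median itself in 14-0-0, 0-0-2, 14-7-0 and 14-7-2. A move below it could thus reverse these medians, so it is no measure of their stability. The median changed direction in cohort 1 alone in 14-7-0 (-0.35, against 0.66 in cohort 2 and 0.18 in all libraries), 14-7-2 (-0.18, against 0.44 and 0.12) and 0-0-2 (-0.01, against 0.63 and 0.32), and with the Ttr covariate in 14-7-2 (-0.03). The runs without 0-0-2 replicate 8 and on either side of the gap were added after the data were seen. Depth was used only in relative terms and per-gene counts were not analysed here, so no counting error is given for low values such as those of Col3a1.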
